A study of Homo sapiens with 18 samples.

Results

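The transcripts described here encode SHP2, its relative SHP1 and the adaptors that couple receptor tyrosine kinases to RAS: PTPN11, PTPN6, GAB1, GAB2, GAB3, GRB2, SHC1, SOS1, SOS2 and CBL. They were chosen by symbol, not by their values, and all 10 were found among the 40184 Ensembl gene IDs of the deposited table. RNA-seq was performed on 3 human lines of acute myeloid leukaemia, each given the vehicle DMSO or RMC-4550 at 500 nM for 24 h, which makes 6 groups of 3 replicates and 18 libraries. The compound is an allosteric inhibitor of the SHP2 protein. Molm-14 and MV4-11 carry FLT3-ITD, an internal tandem duplication in the receptor tyrosine kinase gene FLT3, and SKNO-1 carries KIT N822K, a mutation in the receptor tyrosine kinase gene KIT. SKNO-1 was grown with human GM-CSF at 10 ng/mL and the other lines were not, in the DMSO and the RMC-4550 cultures alike. A single line stood for the KIT genotype, so the line, its receptor mutation and its growth factor cannot be told apart. The replicates are labelled as biological replicates, but what separated them is not given in the sources used here, so every p-value below measures the spread between these samples.

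When a receptor such as FLT3 or KIT is active, its phosphorylated tyrosines recruit adaptors with SH2 domains. GRB2, alone or through SHC1, brings the exchange factors SOS1 and SOS2 to the membrane, where they load RAS with GTP. GAB proteins are docking platforms that, once phosphorylated, bind and open SHP2, a phosphatase needed for full RAS and ERK signalling in many receptor pathways. SHP1 is the closely related phosphatase of blood cells, known mostly as a brake on receptor and cytokine signalling, and CBL is a ubiquitin ligase that marks active receptors for degradation. In FLT3-ITD leukaemia the mutant receptor signals through GAB2 and SHP2 as well as through STAT5.

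Read totals lay between 17434810 and 19959917 per library, and levels are in CPM, which sets the read totals of all libraries to one scale. In 14 libraries 5.07% to 7.02% of reads came from mitochondrial genes. In the other 4 it was 10.5% to 15.0%: replicate 2 of Molm-14 with RMC-4550, replicates 1 and 3 of MV4-11 with DMSO and replicate 1 of MV4-11 with RMC-4550. Several of the 10 genes stood apart in these 4 libraries, so results in Molm-14 and MV4-11 are given with and without them. Without them MV4-11 with DMSO is 1 library, which is then assumed to vary like the other groups. All 10 genes of a myeloid marker list had a mean of at least 1 CPM in every group, although MPO, a granule enzyme of early granulocytic cells, lay between 0.634 and 4.40 CPM in the Molm-14 and MV4-11 libraries and between 315 and 437 CPM in those of SKNO-1. Of 5 T cell genes, CD3D, CD3E, CD3G and CD2 did not exceed 0.0641 CPM in any library. TRAC, the constant segment of the T cell receptor alpha chain, was read at 2.09 to 13.7 CPM in Molm-14, at 0.863 to 5.86 in MV4-11 and at no more than 0.277 in SKNO-1. Summed over the 5, the level went with RMC-4550 from 11.4 to 13.7 CPM down to 2.09 to 3.65 in Molm-14 and from 3.63 to 5.86 down to 0.863 to 1.06 in MV4-11. A sum of 4 B cell genes went from 16.2 to 19.1 CPM down to 8.03 to 11.0 in Molm-14. The part of these genes in the results was not tested.

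All 10 transcripts were read in every library, and 9 of them were abundant enough to test in every line. GAB1 was the exception, with 6 to 12 reads per library in Molm-14. Between the lines without drug, limma called 4 of the 9 other than GAB1 in Molm-14 against MV4-11 at an adjusted p under 0.05, against 54.2% of all genes tested in that comparison. It called 4 of the same 9 in SKNO-1 against Molm-14, against 65.3% of all genes tested, and 3 of the 10 in SKNO-1 against MV4-11, against 42.5%. With RMC-4550, 4 of 9 tested were called in Molm-14, where 46.7% of all genes tested were called. In MV4-11 1 of 10 was called against a background of 13.9%, and in SKNO-1 2 of 10 against 27.1%. Each of these shares lay near or below its background, so the counts set the 10 apart from no other genes, and the account below is of the single transcripts.

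**Figure D1:**
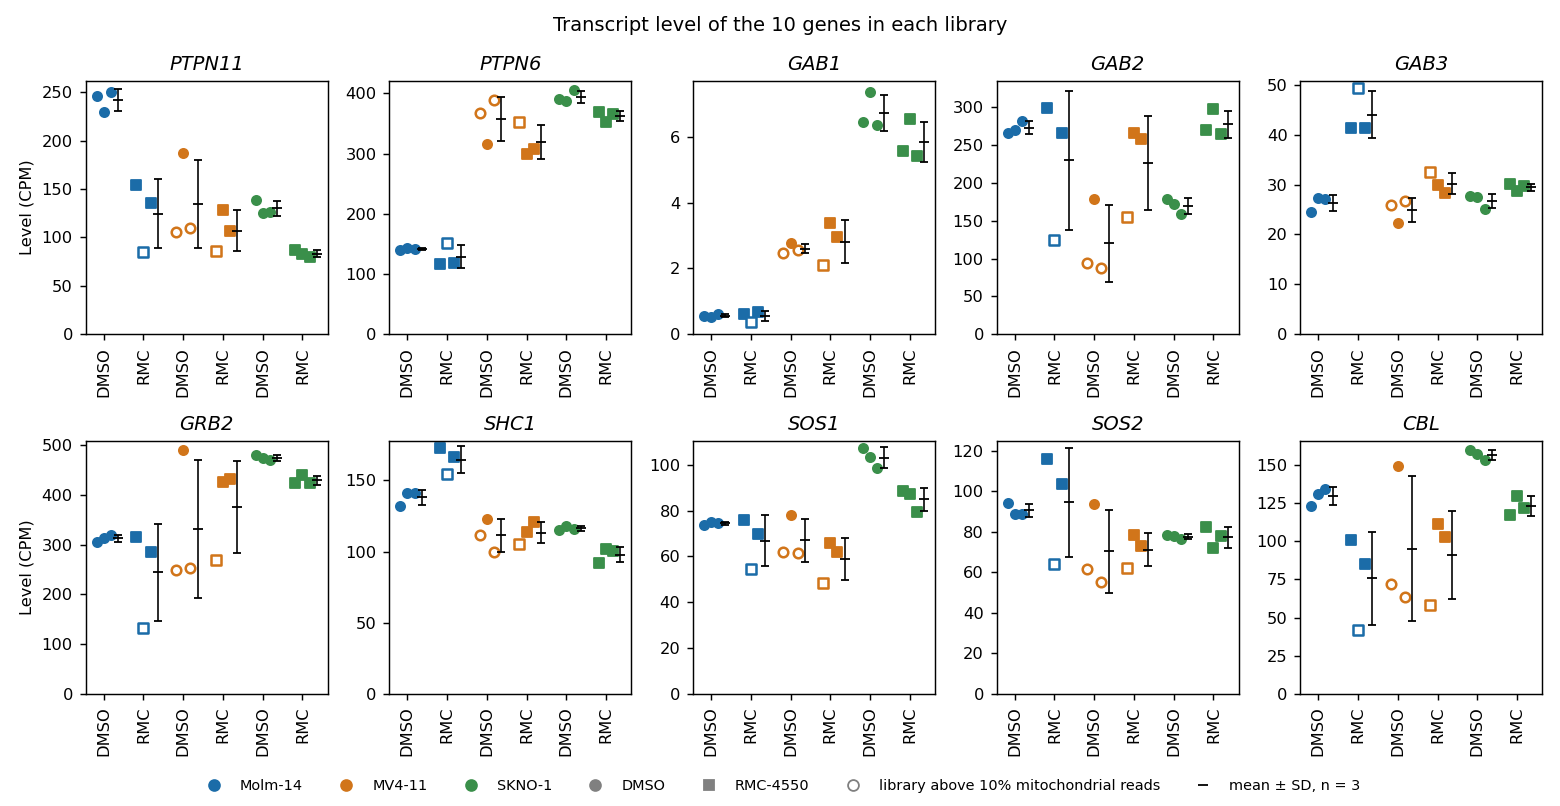
Each panel plots 1 gene, with the level in CPM on the y axis for the 3 libraries of each of 6 groups and the mean ± SD beside them (n = 3). Open symbols are the 4 libraries with more than 10% mitochondrial reads. PTPN11 was lower with RMC-4550 in every Molm-14 and SKNO-1 library, and the open symbols of GAB2, GRB2 and CBL lie far below the filled ones of their group.

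Per kilobase of the longest coding transcript, PTPN6 or GRB2 was the most abundant of the 10 without drug in each line. GRB2 led in Molm-14 with 83.7 ± 1.80 CPM per kb (SD, n = 3), followed by PTPN6 with 59.5 ± 0.81. PTPN6 led in MV4-11 with 149.8 ± 15.5 and in SKNO-1 with 165 ± 4.14 CPM per kb, followed by GRB2 with 88.6 ± 37.2 and 127 ± 1.43. Next came GAB2, SHC1 and PTPN11, between 19.8 and 44.8 CPM per kb in the 3 lines, in an order that differed between them. In Molm-14 SHC1 (39.7 ± 1.54) and PTPN11 (39.7 ± 1.79) lay within each other's spread, and in MV4-11 so did PTPN11 (22 ± 7.50) and GAB2 (19.8 ± 8.35). SOS2, CBL and SOS1 followed in that order in each line. CBL (8.46 ± 4.21) and SOS1 (7.88 ± 1.11) in MV4-11, and SOS2 (14.1 ± 0.20) and CBL (13.9 ± 0.30) in SKNO-1, did not differ beyond their spread. GAB3 was ninth in all 3 lines, at 5.29 to 5.67 CPM per kb, and GAB1 last, at 0.070 to 0.842. The order depends on the transcript length assumed. With the median length of the coding transcripts, PTPN6 led in Molm-14 too, and PTPN11 moved from the fifth to the second place there.

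**Figure D2:**
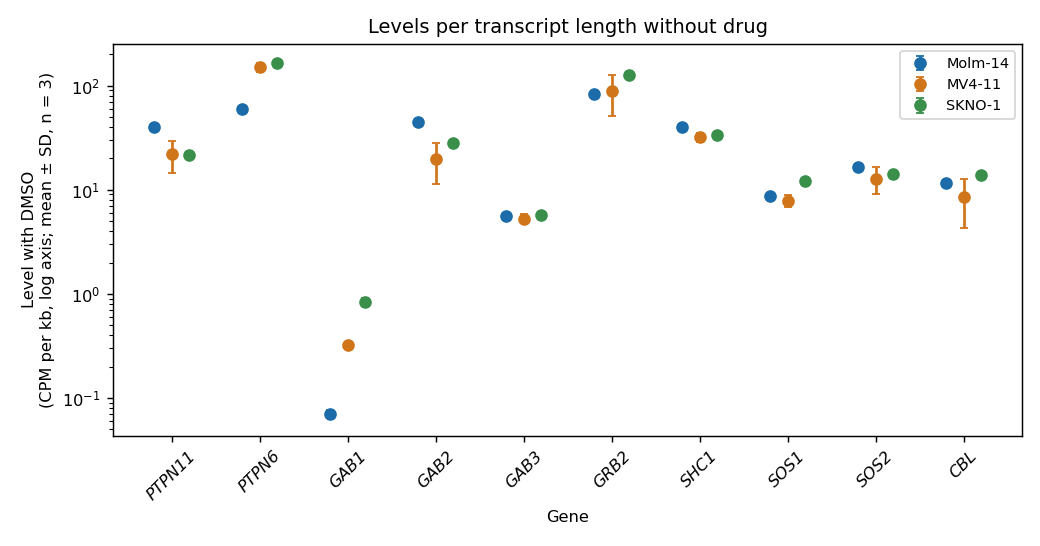
The level of each gene without drug, in CPM per kilobase of its longest coding transcript on a log axis, is plotted for the 3 lines as the mean ± SD of 3 libraries. GAB1 lies lowest in every line, from 0.070 in Molm-14 to 0.842 in SKNO-1, and PTPN6 is the gene after GAB1 whose points lie farthest apart between Molm-14 and the other lines.

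PTPN11 (ENSG00000179295, chr12:112418351-112509913, plus strand, GRCh38), the gene of the drug's target, was highest in Molm-14. Without drug it was read at 246, 229.8 and 251 CPM in Molm-14, at 106, 187 and 110.0 in MV4-11 and at 139, 125 and 126 in SKNO-1. Every Molm-14 library lay above every library of the other lines, while the MV4-11 libraries lay on either side of those of SKNO-1. Molm-14 exceeded MV4-11 by a log2 difference of 0.90 (SE 0.21, limma adjusted p = 0.00243) and SKNO-1 by a similar amount (SKNO-1 minus Molm-14 -0.90, SE 0.21, limma adjusted p = 0.00161). SKNO-1 and MV4-11 differed by 0.00 (SE 0.21). The low values of MV4-11 were those of replicates 1 and 3, both above 10% mitochondrial reads. The 14 libraries under 10% hold 1 of MV4-11 with DMSO. Within them PTPN11 in Molm-14 was 0.37 above MV4-11 and in SKNO-1 0.53 below it.

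With RMC-4550 PTPN11 fell in Molm-14 and SKNO-1. Levels are averages over a culture, in which fewer expressing cells and less RNA per cell cannot be told apart. It was read at 154, 84.9 and 135 CPM in Molm-14 with the drug, at 86.5, 128 and 106 in MV4-11 and at 87.6, 82.5 and 80.2 in SKNO-1. Treated and DMSO libraries did not overlap in Molm-14 or SKNO-1, and they overlapped in MV4-11. The level in Molm-14 was 2.00-fold lower (log2 change -1.0, SE 0.21, limma adjusted p = 0.00135), and replicate 2, with 15.0% mitochondrial reads, was the lowest. Without that library the change was -0.74 and was still called. The level in SKNO-1 was 1.56-fold lower (log2 change -0.64, SE 0.21, limma adjusted p = 0.0367), a call that did not survive the removal of any single SKNO-1 library (-0.68 to -0.59). The change of -0.30 in MV4-11 did not pass the threshold (limma adjusted p = 0.423). Split by mitochondrial share it was -0.68 below 10% (2 treated libraries against 1 with DMSO) and -0.32 above (1 against 2).

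Part of the PTPN11 gene is shared with a neighbour. Of its 7023 exonic bases, 111 overlap exons of RPL6, a ribosomal protein gene on the opposite strand that reached 2175 CPM. Whether reads were assigned by strand is not given in the sources used here, so reads from these bases cannot be told apart. RPL6 itself had log2 changes of 0.06, -0.22 and -0.03 (Molm-14, MV4-11, SKNO-1), and limma called none of these (adjusted p = 0.762, 0.364 and 0.890). The 5 PTPN11 pseudogenes in the table had at most 12 reads in any library.

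PTPN6 (ENSG00000111679, chr12:6946468-6961316, plus strand), which encodes SHP1, was lower in Molm-14 than in the other lines. The DMSO libraries read 140.2, 144 and 142 CPM in Molm-14, at 368, 317 and 389 in MV4-11 and at 390.2, 387 and 406 in SKNO-1. Every Molm-14 library lay below every library of the other lines, and MV4-11 and SKNO-1 overlapped. The level in Molm-14 was 2.51-fold below MV4-11 (log2 difference -1.33, SE 0.10, limma adjusted p = 1.90e-08), and SKNO-1 was 2.77-fold above Molm-14 (1.47, SE 0.10, limma adjusted p = 1.81e-09). SKNO-1 exceeded MV4-11 by 0.15 (SE 0.10), which did not pass the threshold (limma adjusted p = 0.255). Within the 14 libraries under 10% mitochondrial reads, which hold 1 of MV4-11 with DMSO, that difference was 0.32.

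PTPN6 moved less with RMC-4550. It was read at 117, 151 and 119 CPM in treated Molm-14, at 352, 299 and 307 in MV4-11 and at 369, 353 and 366 in SKNO-1. In SKNO-1 the treated libraries all lay below the DMSO libraries, and in the other lines the groups overlapped. The log2 changes were -0.15, -0.16 and -0.12 in the same order (SE 0.10 each), and none passed the threshold in limma (adjusted p = 0.226, 0.348 and 0.414). The highest treated Molm-14 value was again replicate 2 with its high mitochondrial share. With the 4 libraries above 10% left out, the change in Molm-14 was -0.27 and that in SKNO-1 -0.12, and limma called both.

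The ratio of PTPN6 to PTPN11 per kilobase of the longest coding transcript, taken within a library, put the 2 phosphatases side by side. Without drug it was 1.46, 1.60 and 1.45 in the Molm-14 libraries, 8.85, 4.32 and 9.02 in MV4-11 and 7.16, 7.90 and 8.23 in SKNO-1. With RMC-4550 it was 1.93, 4.54 and 2.24 in Molm-14, 10.4, 5.95 and 7.39 in MV4-11 and 10.8, 10.9 and 11.7 in SKNO-1. Every Molm-14 library without drug lay below every library of the other lines, and the treated libraries lay above the DMSO libraries in Molm-14 and in SKNO-1 but not in MV4-11. The means went from 1.5 ± 0.086 to 2.91 ± 1.42 in Molm-14 and from 7.76 ± 0.55 to 11.1 ± 0.47 in SKNO-1 (SD, n = 3), and were 7.40 ± 2.67 and 7.92 ± 2.27 in MV4-11. The ratio was not tested, and the libraries above 10% mitochondrial reads had the highest ratios of their groups. These were 4.54 in treated Molm-14, 8.85 and 9.02 in MV4-11 with DMSO and 10.4 in treated MV4-11. The size of the ratio depends on the transcript lengths assumed. By reads alone, without drug, it was 0.570, 0.627 and 0.567 in the Molm-14 libraries and at least 1.69 in those of the other lines.

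GAB2 (ENSG00000033327, chr11:78215297-78418348, minus strand) and GAB3 (ENSG00000160219, chrX:154675249-154751583, minus strand) are docking proteins known from blood cells. Over the 18 libraries each was called higher with RMC-4550 in 1 line, GAB2 in MV4-11 and GAB3 in Molm-14. Treated libraries lay above the DMSO libraries in SKNO-1 for GAB2 and in all 3 lines for GAB3. The reference sequence just upstream of a RefSeq start site of each gene is shown because each transcript rose with the drug in a line (RefSeq, GRCh38.p14, 5′ to 3′ on the minus strand, GAB2 chr11:78417831-78418070 and GAB3 chrX:154751088-154751327). The set of RefSeq start windows used here covers 7 of the 10 genes and has no entry for PTPN11, GAB1 or CBL, which are named only.
GAB2: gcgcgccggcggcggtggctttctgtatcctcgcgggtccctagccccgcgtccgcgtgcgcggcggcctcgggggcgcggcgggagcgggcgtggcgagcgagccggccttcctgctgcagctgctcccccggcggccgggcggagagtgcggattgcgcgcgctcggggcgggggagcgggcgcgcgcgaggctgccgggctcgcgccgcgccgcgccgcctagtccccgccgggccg
GAB3: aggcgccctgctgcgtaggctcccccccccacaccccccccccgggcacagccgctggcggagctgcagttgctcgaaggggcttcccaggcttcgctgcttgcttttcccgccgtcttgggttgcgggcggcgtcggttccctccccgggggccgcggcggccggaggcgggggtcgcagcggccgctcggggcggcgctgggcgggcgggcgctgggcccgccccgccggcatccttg
The 240 bases of GAB2 are 83.3% G and C, and those of GAB3 79.2%. They were searched on both strands for CCGGAAG (the core bound by ETS factors), GTAAACA (the core bound by FOXO factors), TGANTCA (the AP-1 motif) and CACGTG (the E-box of MYC). None of these letters were found in either window. Of 35116 RefSeq promoter windows of the same length, 7.68%, 2.85%, 6.43% and 6.01% hold the respective motif.

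GAB2 levels without drug were highest in Molm-14. They were 266, 269.8 and 282 CPM there, 94.8, 179 and 87.3 in MV4-11 and 179, 172 and 159 in SKNO-1. Molm-14 did not overlap the other lines, and it exceeded MV4-11 2.39-fold (log2 difference 1.26, SE 0.30, limma adjusted p = 0.00212). SKNO-1 was below Molm-14 by 0.68 (SE 0.30), just short of the threshold (limma adjusted p = 0.0525), and above MV4-11 by 0.57 (limma adjusted p = 0.127). The libraries under 10% mitochondrial reads hold 1 of MV4-11 with DMSO. On them Molm-14 minus MV4-11 was 0.61 and SKNO-1 minus MV4-11 was -0.08. The difference between SKNO-1 and Molm-14 was -0.68 there and was called (limma adjusted p = 1.24e-08). The last was also called by limma in a separate fit of both lines, with voom weights (adjusted p = 0.0491) and under quantile normalization (adjusted p = 0.0435).

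With RMC-4550 GAB2 was read at 299, 125 and 266 CPM in Molm-14, at 155, 267 and 258 in MV4-11 and at 269.8, 298 and 264 in SKNO-1. The treated SKNO-1 libraries all lay above the DMSO libraries, those of MV4-11 overlapped them in 1 library, and Molm-14 had 1 treated library far below the rest. GAB2 rose 1.93-fold in MV4-11 (log2 change 0.95, SE 0.30, limma adjusted p = 0.0425). This call was lost, with changes from 0.76 to 0.83, without DMSO replicate 1 or 3 or RMC-4550 replicate 2 or 3. It was also lost, at the same change, without any 1 Molm-14 DMSO or SKNO-1 library (limma adjusted p = 0.0545 to 0.0568), which enter the shared spread only. The change was 0.55 among MV4-11 libraries under 10% mitochondrial reads (2 treated against 1 with DMSO) and 0.77 among those above (1 against 2). In SKNO-1 the change of 0.71 missed the threshold in the fit over all 18 libraries (limma adjusted p = 0.0899) and passed it in a fit of the 6 SKNO-1 libraries alone and in the fit on the 14 libraries. In Molm-14 it was -0.34 (limma adjusted p = 0.353), and 0.05 without the 1 low library, which is replicate 2.

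GAB3 rose in Molm-14. Its levels without drug were 24.4, 27.2 and 27.2 CPM in Molm-14, 25.9, 22.2 and 26.7 in MV4-11 and 27.7, 27.4 and 25.1 in SKNO-1. No pair of lines differed past the threshold, and the log2 differences were at most 0.11 (SE 0.10) over the 18 libraries. On those under 10% mitochondrial reads, which hold 1 of MV4-11 with DMSO, GAB3 was above MV4-11 by 0.24 in Molm-14 and 0.27 in SKNO-1. With RMC-4550 it reached 41.3, 49.4 and 41.4 CPM in Molm-14, 32.5, 29.8 and 28.3 in MV4-11 and 30.0, 28.6 and 29.7 in SKNO-1. The treated libraries lay above the DMSO libraries in all 3 lines. The rise was 1.67-fold in Molm-14 (log2 change 0.74, SE 0.10, limma adjusted p = 1.83e-05), and it was called whichever Molm-14 library was left out. The changes of 0.28 in MV4-11 and 0.14 in SKNO-1 did not pass the threshold (limma adjusted p = 0.0705 and 0.324). On the libraries under 10% mitochondrial reads that of MV4-11 was 0.38, with 1 DMSO library left.

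GAB1 (ENSG00000109458, chr4:143336762-143474568, plus strand), the more widely expressed docking protein, was low in all 3 lines and lowest in Molm-14. The level without drug was 0.556, 0.519 and 0.613 CPM in Molm-14, 2.48, 2.76 and 2.57 in MV4-11 and 6.46, 7.34 and 6.36 in SKNO-1. The 3 groups did not overlap. SKNO-1 was 2.56-fold above MV4-11 (log2 difference 1.36, SE 0.21, limma adjusted p = 1.05e-04). No test is given against Molm-14, where only 9 to 11 reads lay behind each value without drug and GAB1 passed the filter on low values through the other line alone. With RMC-4550 it was 2.11, 3.39 and 2.94 CPM in MV4-11 and 5.55, 6.54 and 5.42 in SKNO-1, overlapping the DMSO libraries in both (log2 changes 0.09 and -0.20, SE 0.21). In Molm-14 it was 0.601, 0.384 and 0.679 CPM and was not tested.

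GRB2 (ENSG00000177885, chr17:75318076-75405709, minus strand), the SH2 and SH3 adaptor that carries SOS, showed no called difference in any comparison over the 18 libraries. Without drug it was read at 305, 314 and 318 CPM in Molm-14, 249, 491 and 252 in MV4-11 and 479.8, 473 and 469 in SKNO-1. Every SKNO-1 library lay above every Molm-14 library, and MV4-11 spanned both. The log2 difference of 0.60 between SKNO-1 and Molm-14 had an SE of 0.29 (limma adjusted p = 0.0759). It passed the threshold under quantile normalization (0.77, limma adjusted p = 0.0144) and on the 14 libraries under 10% mitochondrial reads. Molm-14 minus MV4-11 was -0.005 over the 18 libraries. That difference was -0.65 on the 14, where MV4-11 with DMSO is replicate 2 alone.

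With RMC-4550 GRB2 was 315, 133 and 285 CPM in Molm-14, 269, 426 and 431 in MV4-11 and 423, 439.7 and 423 in SKNO-1. The treated SKNO-1 libraries all lay below the DMSO libraries, and the other lines overlapped. The log2 changes were -0.45, 0.23 and -0.15 in that order (SE 0.29 each; limma adjusted p = 0.206, 0.675 and 0.757). Without the 4 libraries of high mitochondrial share they were -0.06, -0.20 and -0.15, with that in SKNO-1 called. MV4-11 then had 1 DMSO library left.

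SHC1 (ENSG00000160691, chr1:154962298-154974395, minus strand), the adaptor that links receptors to GRB2, moved in opposite directions in Molm-14 and SKNO-1. It is the 1 gene of the 10 with such calls over the 18 libraries. For that reason the 240 bases upstream of its inner RefSeq start are shown (RefSeq, GRCh38.p14, chr1:154970758-154970997, minus strand, 5′ to 3′). A match to the AP-1 motif TGANTCA is in capitals.
SHC1: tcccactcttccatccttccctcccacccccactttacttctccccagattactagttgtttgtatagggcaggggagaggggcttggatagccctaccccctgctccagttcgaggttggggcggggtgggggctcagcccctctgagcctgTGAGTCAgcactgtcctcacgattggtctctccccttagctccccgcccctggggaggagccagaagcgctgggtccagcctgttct
This was the only match to any of the 4 motifs in the 12 windows of the 7 genes, and the window of the outer SHC1 start held none. Of 35116 RefSeq windows of the same length, 6.43% hold the AP-1 motif. Without drug SHC1 was read at 132, 141 and 141 CPM in Molm-14, 112, 122 and 99.7 in MV4-11 and 115, 118 and 116 in SKNO-1. Molm-14 lay above both other lines without overlap, by 0.32 over MV4-11 (SE 0.08, limma adjusted p = 0.00473) and by 0.25 over SKNO-1 (SKNO-1 minus Molm-14 -0.25, limma adjusted p = 0.0160). The latter call was lost without Molm-14 DMSO replicate 2 or 3, at -0.23 in both cases. On the 14 libraries under 10% mitochondrial reads the difference from MV4-11 was 0.17 and missed the threshold (limma adjusted p = 0.0511).

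With RMC-4550 SHC1 was 173, 154 and 166 CPM in Molm-14, 105, 114 and 120.4 in MV4-11 and 91.7, 101 and 100.4 in SKNO-1. All treated Molm-14 libraries lay above the DMSO libraries, all treated SKNO-1 libraries lay below theirs, and MV4-11 overlapped. SHC1 rose 1.19-fold in Molm-14 (log2 change 0.25, SE 0.08, limma adjusted p = 0.0223) and was 1.19-fold lower in SKNO-1 (-0.25, SE 0.08, limma adjusted p = 0.0348), with 0.03 in MV4-11. The Molm-14 call was lost without DMSO replicate 1, RMC-4550 replicate 1 or RMC-4550 replicate 3, with changes from 0.21 to 0.24. The SKNO-1 call was lost without any 1 of the 6 SKNO-1 libraries, with changes from -0.28 to -0.21, and under median-ratio scaling (-0.19, limma adjusted p = 0.0923) and quantile normalization (-0.16, limma adjusted p = 0.0865). SHC1 shares 335 of its 4342 exonic bases with PYGO2 on the same strand, whose own changes of 0.13, -0.04 and -0.23, in the same order of lines, did not pass the threshold.

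SOS1 (ENSG00000115904, chr2:38981396-39124345, minus strand), the main exchange factor for RAS downstream of GRB2, was highest in SKNO-1. Without drug it was read at 73.9, 74.9 and 74.5 CPM in Molm-14, 62.0, 78.0 and 61.3 in MV4-11 and 107, 103 and 98.5 in SKNO-1. SKNO-1 did not overlap the other lines, with log2 differences of 0.47 from Molm-14 (SE 0.13, limma adjusted p = 0.00480) and 0.63 from MV4-11 (SE 0.13, limma adjusted p = 0.00124). With RMC-4550 it was 76.0, 54.5 and 69.8 CPM in Molm-14, 48.5, 65.9 and 61.9 in MV4-11 and 88.6, 87.3 and 79.3 in SKNO-1. Treated libraries lay below the DMSO libraries in SKNO-1 alone, and the changes of -0.17, -0.19 and -0.28, in the same order of lines, did not pass the threshold (SE 0.13; limma adjusted p = 0.296, 0.384 and 0.130). SOS1 on the 14 libraries under 10% mitochondrial reads was called lower in SKNO-1 (-0.28) and not in Molm-14 (-0.03). In MV4-11, with 1 DMSO library left, the change was -0.29.

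SOS2 (ENSG00000100485, chr14:50117120-50231558, minus strand), its paralogue, was called in no comparison over the 18 libraries. Its levels without drug were 94.5, 88.9 and 88.6 CPM in Molm-14, 61.6, 93.9 and 55.4 in MV4-11 and 78.5, 78.1 and 76.4 in SKNO-1. Molm-14 lay above SKNO-1 without overlap, although their log2 difference of -0.22 (SKNO-1 minus Molm-14, SE 0.19) did not pass the threshold. It was called on the libraries under 10% mitochondrial reads. SKNO-1 minus MV4-11, with 1 MV4-11 DMSO library left, was -0.27 there. With RMC-4550 it was 116, 64.2 and 104 CPM in Molm-14, 62.3, 78.5 and 72.8 in MV4-11 and 82.3, 71.9 and 77.7 in SKNO-1, overlapping the DMSO libraries in every line. The changes were 0.02, 0.05 and -0.01 (SE 0.19). On the libraries under 10% mitochondrial reads SOS2 was called higher in Molm-14 (0.27). In MV4-11, with 1 DMSO library left, the change was -0.31.

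CBL (ENSG00000110395, chr11:119206276-119313926, plus strand) was lower with RMC-4550 in Molm-14. Its DMSO levels were 123, 131 and 134 CPM in Molm-14, 72.0, 149 and 63.7 in MV4-11 and 159.6, 157 and 153 in SKNO-1. SKNO-1 lay above both other lines without overlap. Its difference from MV4-11 was called (log2 difference 0.83, SE 0.32, limma adjusted p = 0.0473) and that from Molm-14, 0.28, was not (limma adjusted p = 0.465). The call against MV4-11 was lost without MV4-11 DMSO replicate 1 or 3, or without any 1 of the SKNO-1 DMSO libraries, with differences from 0.59 to 0.84. It was also lost, at 0.83, without any 1 of the Molm-14 DMSO or SKNO-1 RMC-4550 libraries, MV4-11 RMC-4550 replicate 3 or Molm-14 RMC-4550 replicate 3 (limma adjusted p = 0.0515 to 0.0587). Over the 14 libraries under 10% mitochondrial reads, which lack MV4-11 DMSO replicates 1 and 3, it was 0.07 and not called, while the 0.28 from Molm-14 was called there.

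With RMC-4550 CBL was 101, 41.8 and 84.9 CPM in Molm-14, 57.9, 111 and 103 in MV4-11 and 117, 129.8 and 122 in SKNO-1. Treated libraries lay below the DMSO libraries in Molm-14 and SKNO-1 and overlapped in MV4-11. CBL was 1.82-fold lower in Molm-14 (log2 change -0.87, SE 0.32, limma adjusted p = 0.0357). Without treated replicate 2 the change was -0.48 and not called (limma adjusted p = 0.199), and the call was also lost without any 1 of the 3 DMSO libraries, at -0.90 to -0.84. In the fit on the 14 libraries CBL was lower in all 3 lines, at -0.48, -0.48 and -0.35. Over all 18 the changes were -0.87, -0.02 and -0.35. Limma called CBL on the 14 libraries in Molm-14 and SKNO-1, and MV4-11 had 1 DMSO library left there. Among the MV4-11 libraries above 10% the change was -0.22.

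**Figure D3:**
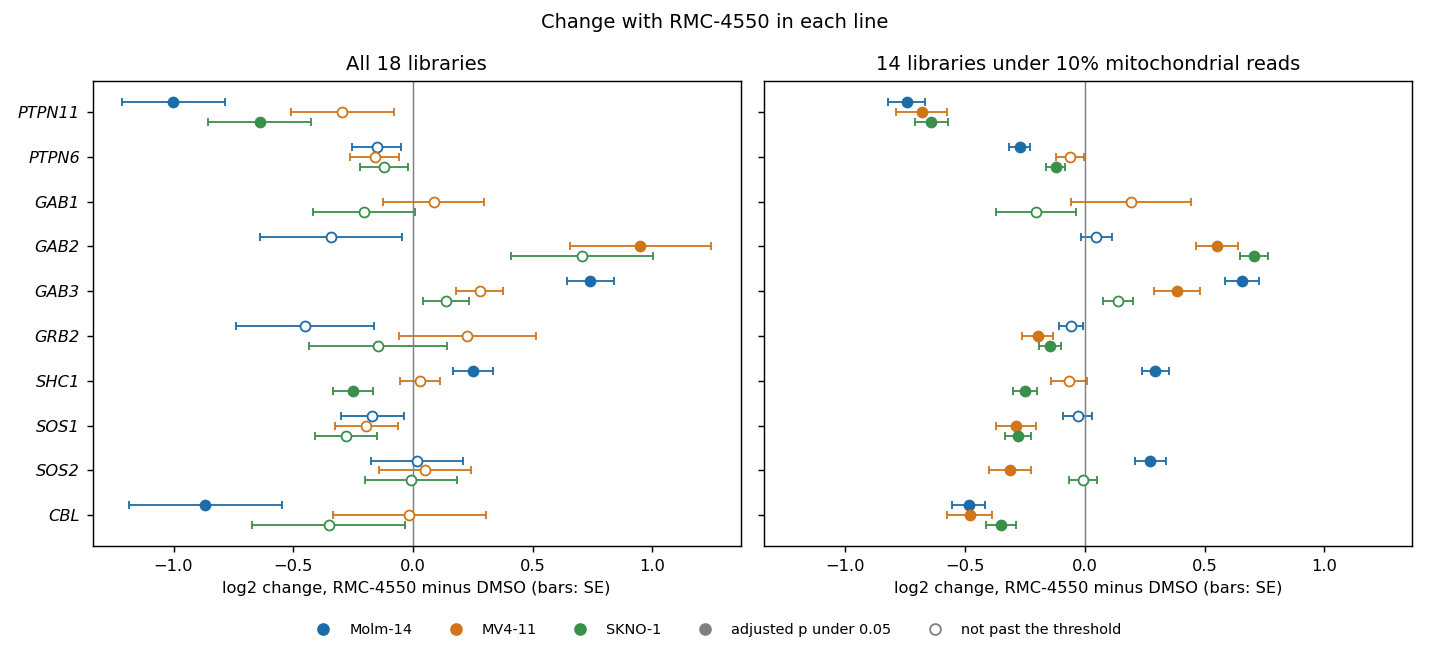
Log2 changes with RMC-4550 minus DMSO are plotted for each gene and line with their SE, from the fit over 18 libraries on the left and over the 14 libraries under 10% mitochondrial reads on the right, with filled points at a limma adjusted p under 0.05. GAB1 is not drawn for Molm-14, where it was not tested. On the right PTPN11 lies between -0.74 and -0.64 in the 3 lines and CBL between -0.48 and -0.35. The MV4-11 points there rest on 1 DMSO library.

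Side by side over the 18 libraries, 2 of the 4 calls in Molm-14 were higher (GAB3 and SHC1) and 2 lower (PTPN11 and CBL), the call in MV4-11 was higher (GAB2) and both calls in SKNO-1 were lower (PTPN11 and SHC1). The median log2 change of the tested transcripts was -0.17, 0.04 and -0.17 in these lines, and that of all genes tested was -0.06, -0.01 and -0.05. In SKNO-1, where replicates lay close together, treated and DMSO libraries did not overlap for 8 of the 10, with GAB2 and GAB3 higher and PTPN11, PTPN6, GRB2, SHC1, SOS1 and CBL lower. That pattern is common in SKNO-1, since 62.0% of all genes tested there did not overlap. A fit of the 6 SKNO-1 libraries alone, which takes its spread from them, called 7 of the 10, all of these but GAB3, against 56.0% of all genes in that fit. In Molm-14 the groups did not overlap for 4 of the 9 tested (60.0% of all genes) and in MV4-11 for GAB3 alone (24.6%). In SKNO-1 40.0% of all calls were higher with the deposited scaling and 50.4% with median-ratio scaling, and the directions of the 8 held under both.

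On the 14 libraries under 10% mitochondrial reads, a choice made after seeing the data, more of the 10 were called with RMC-4550. In Molm-14 3 were higher (GAB3, SHC1 and SOS2) and 3 lower (PTPN11, PTPN6 and CBL) of 9 tested, against 58.7% of all genes called. In MV4-11 2 were higher (GAB2 and GAB3) and 5 lower (PTPN11, GRB2, SOS1, SOS2 and CBL) of 10, against 28.4%. In SKNO-1 1 was higher (GAB2) and 6 lower (PTPN11, PTPN6, GRB2, SHC1, SOS1 and CBL) of 10, against 53.3%. PTPN11 and CBL were thus lower in all 3 lines in that fit. All MV4-11 values there rest on 1 DMSO library. Over the 18 libraries the MV4-11 changes of PTPN11 (-0.30) and CBL (-0.02) were not called.

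The libraries of high mitochondrial share differed from the others of their group by gene. CBL stood at 45.2% of the others in Molm-14 with RMC-4550, at 45.3% in MV4-11 with DMSO and at 54.1% in MV4-11 with RMC-4550. GAB2 stood at 44.4%, 50.9% and 59.0% and GRB2 at 44.2%, 51.0% and 62.7% in the same groups. PTPN11 stood at 58.8%, 57.7% and 74.1%, SOS2 at 58.7%, 62.3% and 82.4% and SOS1 at 74.8%, 79.1% and 75.9%. SHC1 stood at 86.1% to 91.0%, GAB1, with few reads, at 62.5%, 91.6% and 67.2%, and PTPN6 and GAB3 lay above the others, at 112% to 128%. Over all 16262 genes the median log2 difference was between -0.06 and -0.02, and 13.2%, 9.62% and 5.11% of them lay at or below -0.8. The part of the mitochondrial share in the results above was not tested beyond the fits named.

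**Figure D4:**
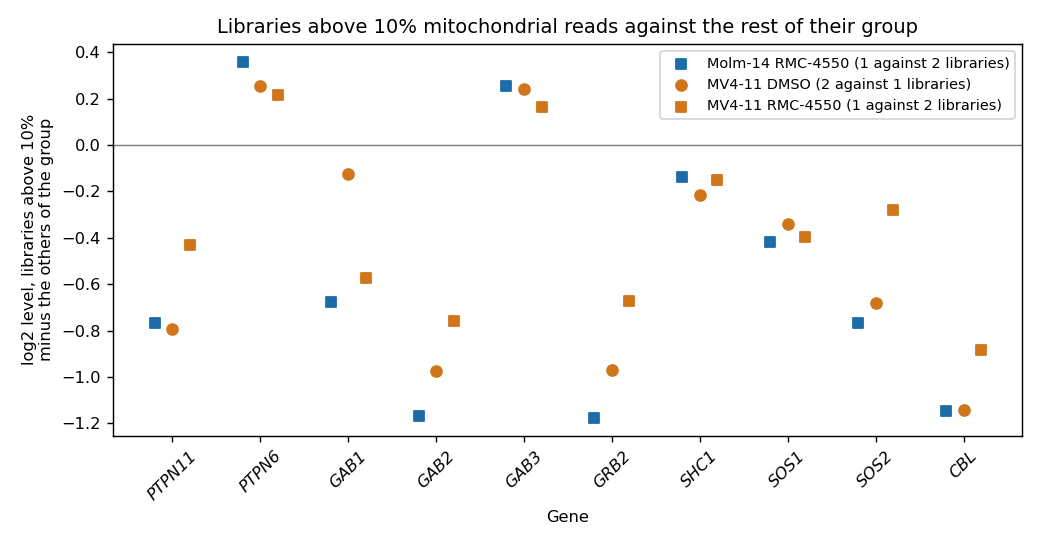
For each gene the log2 level in the libraries above 10% mitochondrial reads minus that in the others of the same group is plotted for the 3 groups that hold such libraries. CBL, GAB2 and GRB2 lie lowest in all 3 groups, and PTPN6 and GAB3 lie above 0.

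The difference between the lines' responses was tested directly for 9 of the 10. Between Molm-14 and MV4-11 it was called for GAB2 and GAB3, against 19.5% of all genes tested. GAB2 responded less in Molm-14 (-0.34) than in MV4-11 (0.95), by -1.29 (SE 0.42, limma adjusted p = 0.0418), and GAB3 responded more (0.74 against 0.28, difference 0.46, SE 0.14, limma adjusted p = 0.0295). The GAB2 call was lost, at -1.31 to -0.90, without any 1 of MV4-11 DMSO replicates 1 and 3, MV4-11 RMC-4550 replicates 2 and 3, the 3 Molm-14 DMSO libraries and Molm-14 RMC-4550 replicate 2, and at -1.29 without any 1 SKNO-1 library (limma adjusted p = 0.0526 to 0.0549). The GAB3 call was lost, at 0.38 to 0.45, without the same MV4-11 and Molm-14 libraries other than Molm-14 DMSO replicates 2 and 3. Over the 14 libraries the GAB2 difference was -0.50 and called, and the GAB3 difference was 0.27 and not called, while differences of 0.58 for SOS2 (limma adjusted p = 0.00154) and 0.36 for SHC1 (limma adjusted p = 0.0133) were called, against 17.7% of all genes tested. Between SKNO-1 and the mean of the other lines it was called over the 18 libraries for SHC1 alone, by -0.39 (SE 0.10, limma adjusted p = 0.0434), against 3.80% of all genes tested. Leaving out any 1 of 15 libraries ended this call, at -0.42 to -0.34, the exceptions being MV4-11 DMSO replicate 2, MV4-11 RMC-4550 replicate 1 and Molm-14 RMC-4550 replicate 2, and on the 14 libraries it was -0.37 and called. GAB2 (0.41, limma adjusted p = 0.00231) and GAB3 (-0.38, limma adjusted p = 0.00626) were called there too, against 19% of all genes tested. The difference in PTPN11 response was -0.70 between Molm-14 and MV4-11 (SE 0.30, limma adjusted p = 0.107) and 0.01 between SKNO-1 and the mean of the others (SE 0.26). Over the 14 libraries these PTPN11 differences were -0.06 and 0.07. That between Molm-14 and MV4-11 was called after MV4-11 DMSO replicate 2 (-0.97) or Molm-14 RMC-4550 replicate 1 (-0.88) was left out. It was not called after any other single library was removed.

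Other genes around these proteins were described from a list of 93 symbols in 6 roles, of which 92 were in the table. With RMC-4550 limma called 20 higher and 21 lower of 75 tested in Molm-14, 18 and 4 of 81 in MV4-11 and 19 and 8 of 82 in SKNO-1. All genes tested were called higher in 21.5%, 5.85% and 10.8% of cases and lower in 25.2%, 8.03% and 16.2%. Inhibitory receptors whose tyrosine motifs recruit SHP1 or SHP2 were the role with the most rises in each line, with 8 of 12 higher in Molm-14, 8 of 15 in MV4-11 and 7 of 15 in SKNO-1. SIRPA was the 1 such receptor called lower over the 18 libraries, in Molm-14 (-0.40). The fit of 14 libraries gave lower calls among these receptors in both Molm-14 and SKNO-1. LILRB4, a leukocyte receptor of monocytic cells, rose in all 3 lines, from 70.2 ± 0.60 to 103 ± 15.4 CPM in Molm-14, from 216 ± 2.12 to 346 ± 14.7 in MV4-11 and from 275 ± 3.58 to 476 ± 8.52 in SKNO-1 (SD, n = 3; limma adjusted p = 1.16e-04, 7.19e-05 and 5.96e-06). LILRB3 rose by 1.80 in MV4-11 and 2.03 in SKNO-1 on the log2 scale, and LAIR1 by 0.52 in Molm-14 and 0.64 in SKNO-1. In the fit of 14 libraries 6 of 10, 8 of 15 and 10 of 15 of these receptors were called higher, against 26.6%, 8.85% and 21.2% of all genes tested.

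Among tyrosine phosphatases of blood cells PTPRE, a receptor-type enzyme, fell in every line, on the log2 scale by 1.06, 1.36 and 1.11 in the order used above (limma adjusted p at most 2.95e-08). PTPRO rose in all 3, by 0.69, 1.03 and 1.14. Of 13 phosphatases tested per line PTPRO alone was higher and PTPN7, PTPRE and INPP5D were lower in Molm-14, PTPN22 and PTPRO were higher and PTPRE lower in MV4-11, and PTPN2 and PTPRO were higher and PTPN7 and PTPRE lower in SKNO-1. Among the kinases that phosphorylate adaptors, FES rose by 0.32, 0.27 and 0.54 on the log2 scale, while the SRC-family kinase FYN fell by 0.74 in Molm-14 and YES1 by 0.89 in Molm-14 and 0.60 in SKNO-1.

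Of the 8 ligases and partners of CBL tested in Molm-14, 6 were called lower and 1 (CBLB, 0.46) higher. None was called in MV4-11, and 1 (SPRY2, -1.52) was lower in SKNO-1. Of all genes tested, 25.2%, 8.03% and 16.2% were called lower in the same order of lines. CBLB, and SPRY2 in SKNO-1 with 7.17 ± 0.67 CPM without drug, are named after their values were seen. Whether these counts differ between lines was not tested. SPRY2, a feedback inhibitor that binds CBL, went down in Molm-14 from 56.9 ± 0.45 to 19.8 ± 6.98 CPM (log2 change -1.60, SE 0.28, limma adjusted p = 2.98e-04), and UBASH3B, a CBL-binding phosphatase, from 31.9 ± 2.51 to 10.7 ± 2.40 (-1.59, SE 0.21, limma adjusted p = 2.25e-05). With the 14 libraries 6 of the 8 were again called lower in Molm-14, and 3 in each of the other lines, against 32.1%, 19.6% and 32.1% of all genes tested.

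Adaptors and docking proteins were called in both directions. There were 5 higher and 7 lower of 18 in Molm-14, 3 and 2 of 21 in MV4-11 and 3 and 3 of 22 in SKNO-1. Of all genes tested, 21.5%, 5.85% and 10.8% were called higher and 25.2%, 8.03% and 16.2% lower in these lines. LAT2, a transmembrane adaptor that binds GRB2, fell by 0.79 in Molm-14 and 0.57 in MV4-11 on the log2 scale, SHB rose by 1.19 and 0.48 there, and CRKL fell by 0.64 in SKNO-1. Among SH2-domain effectors beside RAS, PLCG2 rose by 0.37, 0.45 and 0.33 and the exchange factor VAV1 by 0.24, 0.28 and 0.27, in the same order of lines, while PLCG1 fell by 0.54 in MV4-11 and 0.76 in SKNO-1.

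**Figure D5:**
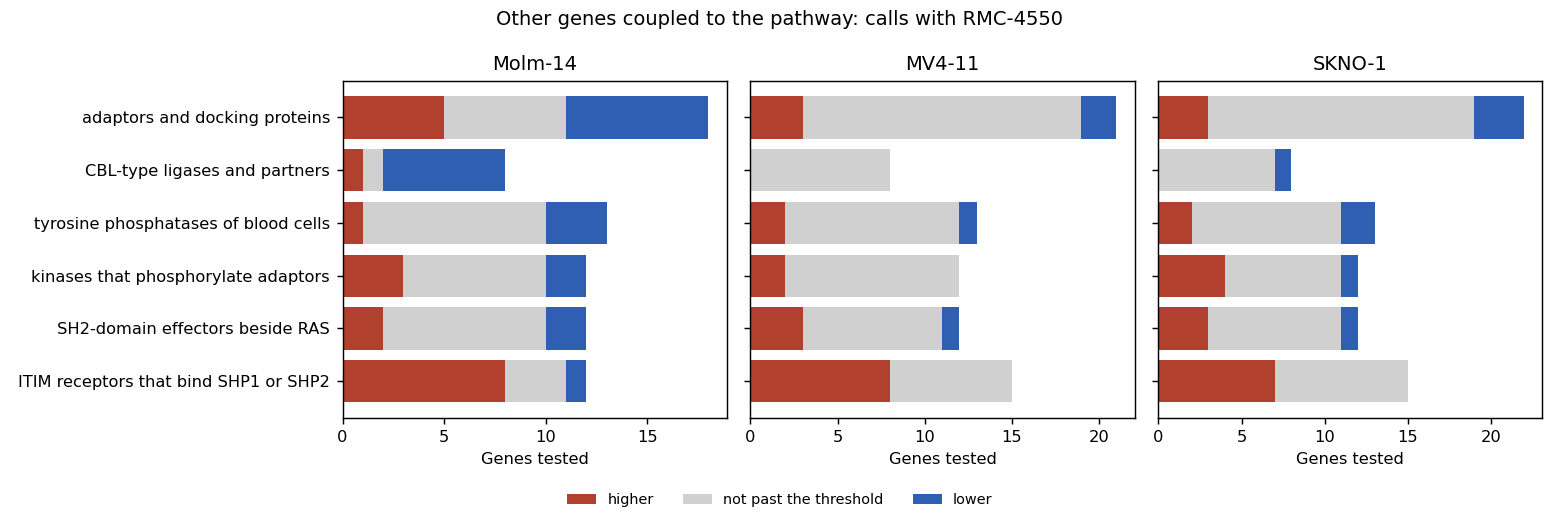
The number of genes tested per line is plotted for 6 roles around the 10 transcripts, split into those called higher, not past the threshold and called lower with RMC-4550 (limma adjusted p under 0.05). The receptors that bind SHP1 or SHP2 have 8 of 12, 8 of 15 and 7 of 15 genes higher, from the Molm-14 panel to the SKNO-1 panel. Of all genes tested, 21.5%, 5.85% and 10.8% were called higher.

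The transcripts whose levels ran most like PTPN11 over the 18 libraries were ADAM9 (Pearson r = 0.99), PAQR3, CPSF2, CSGALNACT2 and CTNNAL1 (r = 0.98 each), ranked among 11027 genes. Those most like PTPN6 were APOBEC3H, FBXO44, TUBG2, ARMCX5 and PIH1D1, with r = 0.99 each. These are descriptions over libraries that share 3 lines, so a difference between lines alone gives a high r, and none of the other 9 members was among either 5.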

How the data were processed

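Polyadenylated RNA of 18 cultures (3 lines, DMSO or RMC-4550, 3 replicates per group) was read from DNA nanoballs (per the labels' protocols). FastQC, STAR, limma and GRCh38 are named in the submitters' processing notes. The counter, annotation, filters and strand setting are not given in the sources used here. The authors deposited log2 values for 40184 gene IDs. From the values, each is log2 CPM, with 0.5 added to the reads and each library scaled (scaling 0.890 to 1.11), and undoing this gave whole reads within 0.02 for 100% of the values under 1000 reads. Levels in CPM come from these reads. Amplified reads without molecular identifiers are not independent molecules.

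Symbols were matched by ID for 40069 genes, and coordinates and transcript lengths are those of GENCODE 29 (GRCh38). Differences were tested on the deposited log2 values with limma 3.58.1 in R 4.3.3 (lmFit, eBayes with trend, two-sided), with 1 coefficient per group over 18 samples and Benjamini-Hochberg adjustment over the genes tested in each comparison, at 0.05. Genes needed 1 CPM in at least 3 samples (16262 genes) and again in 3 samples of the line or pair of lines compared, and of each line for differences between responses. The script was tested on simulated data. The members, the gene lists and the tests were chosen with earlier results of these data known. Genes of the wider list were named by rule: up to 4 per role and line with the largest change among those called with a mean of at least 5 CPM, and those like PTPN11 and PTPN6 as the 5 of highest Pearson r. A gene that this rule names is not reported here. Alternatives were log2(CPM + 1), no filter, quantile normalization, median-ratio scaling, a minimum mean of 5 CPM, separate fits, the replicate block, voom weights, the mitochondrial share as a covariate and each library left out. The fit on the 14 libraries under 10% mitochondrial reads was added after seeing the data. RefSeq windows run from 250 to 11 bases before a start. Figures were drawn with matplotlib 3.10.9.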

Additional observations from a re-analysis of the deposited data

Results flagged for a closer look

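The response of GAB2 to RMC-4550 differed between the FLT3-ITD lines by -1.29 on the log2 scale (Molm-14 minus MV4-11, limma adjusted p = 0.0418), with treated and DMSO libraries overlapping in both lines. The response of GAB3 differed between the same lines by 0.46 (limma adjusted p = 0.0295), with the treated libraries above the DMSO libraries in both lines. The response of SHC1 in SKNO-1 differed from the mean of the other lines by -0.39 (limma adjusted p = 0.0434), lower in 3 of 3 treated SKNO-1 libraries and higher in 3 of 3 treated Molm-14 libraries. All 3 differences were picked out because the test of the difference itself passed the threshold, and the report gives each without single libraries.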

How the results depend on the processing

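With RMC-4550, without a filter on low values, which adds tests to the adjustment, limma called 2 of the 10 in Molm-14, 0 in each of the other lines and 0 in either difference between responses, with 11 of the wider list in MV4-11. Of all genes 16.7%, 3.55%, 8.38%, 4.35% and 0.998% were called in these 5 comparisons. With the replicate block, 0 were called in MV4-11, 1 in SKNO-1 and 0 in either difference between responses (11.8%, 24.5%, 14.4% and 2.95% of all genes). The CBL call in Molm-14 (-0.87, adjusted p = 0.0533) and the PTPN11 call in SKNO-1 (-0.64, adjusted p = 0.0599) were among those lost. Whether the replicate numbers pair the samples is not known, and with 3 libraries per group the correlations cannot decide it. DMSO and treated libraries of the same number had deviations correlated at -0.05, -0.04 and 0.00 in Molm-14 and 0.13, 0.01 and 0.04 in SKNO-1. The correlations in MV4-11 were 0.39, 0.59 and -0.40. There both libraries of number 1 lay above 10% mitochondrial reads and both of number 2 below. Of the 9, 3 correlated best with their own number. Separate fits called 0 in MV4-11 with 7 of the wider list, 7 in SKNO-1 with 58, 9 in SKNO-1 against Molm-14 and 0 in the difference between Molm-14 and MV4-11 (4.55%, 56.0%, 82.9% and 8.11% of all genes). Counts against Molm-14 here and below include GAB1, which passed the filter through the other line alone, except for Molm-14 against MV4-11 on 14 libraries, where it was not tested. Median-ratio scaling called 1 in SKNO-1 (26.6% of all genes) and turned CBL in MV4-11 to 0.026 and SOS2 in SKNO-1 to 0.055. Quantile normalization turned them to 0.0019 and 0.10, GAB3 in Molm-14 against MV4-11 to -0.026, PTPN11 in SKNO-1 against MV4-11 to -0.065 and the differences between responses of SOS2 (Molm-14 against MV4-11) to 0.078 and of PTPN6 (SKNO-1 against the others) to -0.048. Voom weights, log2(CPM + 1) and a mean of at least 5 CPM left every count within 1.5 times. The cause of these changes was not tested. A low count in 1 of the 18-library comparisons cannot be read as no change, as the spread of the 4 libraries of high mitochondrial share enters every test.

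With the mitochondrial share as a covariate, limma called 7 in MV4-11 with 47 of the wider list, 6 in SKNO-1 with 49, 8 in Molm-14 against MV4-11, 9 in SKNO-1 against Molm-14, 6 in SKNO-1 against MV4-11, 5 in the difference between Molm-14 and MV4-11 and 3 in that of SKNO-1, against 34.3%, 49.6%, 58.1%, 79.6%, 45.6%, 22.2% and 19.5% of all genes. Values that turned with RMC-4550 were GAB2 in Molm-14 to 0.069, GAB1, GRB2, SHC1 and SOS2 in MV4-11 to -0.10, -0.18, -0.047 and -0.22, and SOS2 in SKNO-1 to 0.024. Between lines, SOS1, SOS2 and CBL in Molm-14 against MV4-11 turned to -0.10, -0.036 and -0.20, and PTPN11, GAB2, GRB2, SHC1 and SOS2 in SKNO-1 against MV4-11 to -0.53, -0.18, -0.13, -0.062 and -0.30. Differences between responses turned to -0.23 for PTPN6, 0.13 for GRB2, 0.50 for SOS2 and 0.050 for CBL (Molm-14 against MV4-11) and to 0.023 for GRB2 (SKNO-1). On the 14 libraries under 10%, 7 were called in MV4-11, 7 in SKNO-1 with 57 of the wider list, 9 in SKNO-1 against Molm-14, 6 in SKNO-1 against MV4-11 and 3 in the difference of SKNO-1, against 28.4%, 53.3%, 81.0%, 41.1% and 19% of all genes. There GAB2 in Molm-14 turned to 0.048, GRB2, SHC1 and SOS2 in MV4-11 to -0.20, -0.065 and -0.31, SOS1, SOS2 and CBL in Molm-14 against MV4-11 to -0.067, -0.051 and -0.21, and PTPN11, GAB2, GRB2, SHC1 and SOS2 in SKNO-1 against MV4-11 to -0.53, -0.076, -0.050, -0.074 and -0.27. Differences between responses turned to -0.21 for PTPN6, 0.14 for GRB2 and 0.58 for SOS2 (Molm-14 against MV4-11) and to 0.010 for SOS2 (SKNO-1).

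Leaving out single libraries of the 18, the 10 gave 2 to 4 calls in Molm-14, 0 to 2 in MV4-11 (8 to 31 of the wider list), 0 to 3 in SKNO-1, 2 to 5 in SKNO-1 against MV4-11, 0 to 5 in the difference between Molm-14 and MV4-11 and 0 to 1 in that of SKNO-1. Uncalled values changed sign in these ranges: with RMC-4550, GAB2 -0.58 to 0.048 and SOS2 -0.15 to 0.27 in Molm-14, GAB1 -0.061 to 0.28, SHC1 -0.049 to 0.10, SOS2 -0.10 to 0.28 and CBL -0.25 to 0.37 in MV4-11, and SOS2 -0.055 to 0.042 in SKNO-1. Between lines they were GAB3 -0.0018 to 0.13 and GRB2 -0.17 to 0.32 (Molm-14 against MV4-11), GAB3 -0.025 to 0.071 (SKNO-1 against Molm-14), and PTPN11 -0.14 to 0.27 and SHC1 -0.0069 to 0.14 (SKNO-1 against MV4-11). For differences between responses they were PTPN6 -0.11 to 0.093, SOS1 -0.11 to 0.16 and SOS2 -0.26 to 0.22 (Molm-14 against MV4-11), and PTPN11 -0.12 to 0.095, GRB2 -0.23 to 0.082, SOS2 -0.17 to 0.041 and CBL -0.10 to 0.22 (SKNO-1).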
